A study of Mus musculus with 12 samples.

Results

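Gene expression in CLEC12A-high basophil-lineage cells of mice was compared with that in mature basophils of the bone marrow (BM) and spleen, using the 12 bulk RNA sequencing libraries of the series. The CLEC12A-high side held 3 libraries of CD34+ basophil progenitors (BaPs) and 3 of CD34- pre-basophils, which the sample titles call immature basophils. The mature side held 3 libraries of BM mature basophils and 3 of spleen mature basophils. All 12 libraries of the series entered the comparison, 6 on each side. Of 32227 genes in the count table, 15083 passed a filter on low counts and were tested. The question was which differences are shared by both immature and both mature groups.

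All groups were sorted from C57BL/6J WT mice, with no treatment named in the labels. Pre-basophils were sorted from the BM as CD34-, CLEC12A-high and CD9-low cells, and mature cells from either tissue as CLEC12A-low and CD9-high. BaPs were sorted from the BM as CD34+ cells, and a CLEC12A gate for these 3 libraries was not given in the sources used here. They stand on the CLEC12A-high side by the grouping used for this comparison. By flow cytometry the study found BaPs of the BM to be CLEC12A-high and CD9-low. Each library came from cells of several animals pooled, so the spread between replicates is a spread between pools. The ages of the mice were not given in the sources used here. The mature side holds both tissues and the CLEC12A-high side only BM, so a difference from the spleen libraries alone cannot be told apart from one between tissues. CLEC12A, CD9 and CD34 protein were used for sorting, and CD200R3, c-Kit and CD49b (gene Itga2) are used in the study to gate basophils. The study also tells pre-basophils from mature basophils by surface FcεRIα (gene Fcer1a) and CD49b. The genes of all these proteins are thus no independent evidence.

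Basophils are rare granulocytes that arise in the BM, carry the high-affinity IgE receptor and release histamine, lipid mediators, proteases and type 2 cytokines. Their precursors still divide and fill their granules, whereas mature cells have left the cell cycle and enter the blood. Basophils respond to IgE, complement, chemokines and cytokines. In the study, mature basophils reacted more strongly than pre-basophils to antigen with IgE. Pre-basophils secreted more IL-4 than mature basophils after IL-3, given alone or together with IL-33. CLEC12A is an inhibitory C-type lectin receptor of myeloid cells. The proteases encoded by Prss34 and Mcpt8 are stored in basophil granules, and Mki67 encodes the Ki-67 antigen of dividing cells.

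Counts were scaled to CPM, the count of a gene per 1000000 counts of its library, with library sizes adjusted by edgeR's TMM factors. For each gene the pooled contrast was the mean of the BaP and pre-basophil group levels minus the mean of the BM and spleen mature group levels on the log2 scale, tested with edgeR's quasi-likelihood test in a model with 4 groups. A gene was called at a Benjamini-Hochberg adjusted p under 0.05. Positive log2 fold changes stand for higher levels on the CLEC12A-high side throughout. For single genes, CPM values are given as the lowest, median and highest of the 6 libraries of a side.

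Library totals ran from 3596108 to 8151030 counts, and a count of 0 allowed up to 0.290 to 0.955 CPM, depending on the library. BaP replicate 3 stood apart from the other 11 libraries. It had 26743 genes with at least 1 count, where the others had 21911 to 24704, and it was the highest library for the summed levels of the monocyte, T and NK cell, erythroid, eosinophil and mitochondrial lists. The T and NK cell list summed to 1284 CPM in it and to between 213 and 449.8 CPM in the other 5 CLEC12A-high libraries. Genes of the immediate-early list, which respond to handling and to cell activation, took 3.88% to 6.83% of counts in CLEC12A-high and 10.5% to 14.03% in mature libraries. The 13 mitochondrial transcripts summed to 12753 to 24009 CPM on the CLEC12A-high side and to 7719 to 12351 CPM on the mature side. The part of these features in the gene-level differences was not tested.

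**Figure D1:**
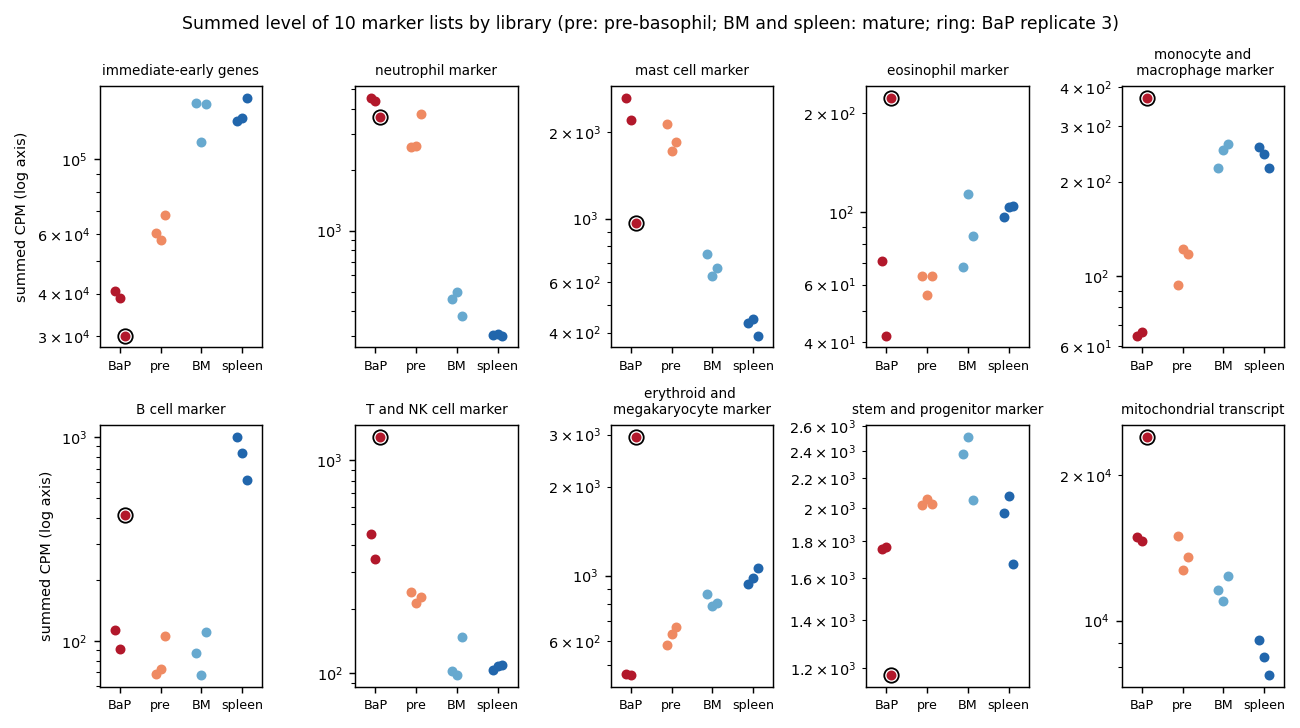
Summed CPM (log axis) of 10 marker lists in each library, by group, with 3 points per group and a ring around BaP replicate 3. The immediate-early sums of the 6 mature libraries, 112254 to 151815 CPM, lie above those of all CLEC12A-high libraries, and BaP replicate 3 is the highest library in the T and NK cell panel with 1284 CPM.

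The pooled contrast called 8628 of 15083 genes (57.2%), 4674 higher (31%) and 3954 lower (26.2%) on the CLEC12A-high side. The split of calls was thus 54.2% higher, but it depended on the scaling. Without the TMM factors, that is with library totals alone, 75.0% of 8336 calls were higher, and the median of all tested genes moved from 0.00 to 0.26 on the log2 scale. The median of the genes called higher was 0.94 and that of the genes called lower was -0.76. The shares of 31% higher and 26.2% lower are those to set beside every list count of this contrast. In bulk samples a smaller fraction of cells of one type and less RNA per cell cannot be told apart, which applies to every gene described here. The study states that these bulk data came from a single experiment. The p-values thus measure the spread between pools within it and not between experiments.

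Effects common to all groups were counted as genes called with the same sign in BaPs and pre-basophils, each against BM mature and spleen mature basophils. There were 3205 such genes, 2032 higher (13.5%) and 1173 lower (7.78%). These 4 pairwise comparisons share libraries and are no independent repeats. The other 5423 called genes did not pass in at least 1 of them, and 521 called genes had a pairwise difference of the opposite sign. The share of the between-group sum of squares that lay in the pooled contrast had a median of 70.7% over all tested genes. It was 84.5% over called genes and 92.8% over the common genes, and both of these values are raised by the rules that chose the genes.

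**Figure D2:**
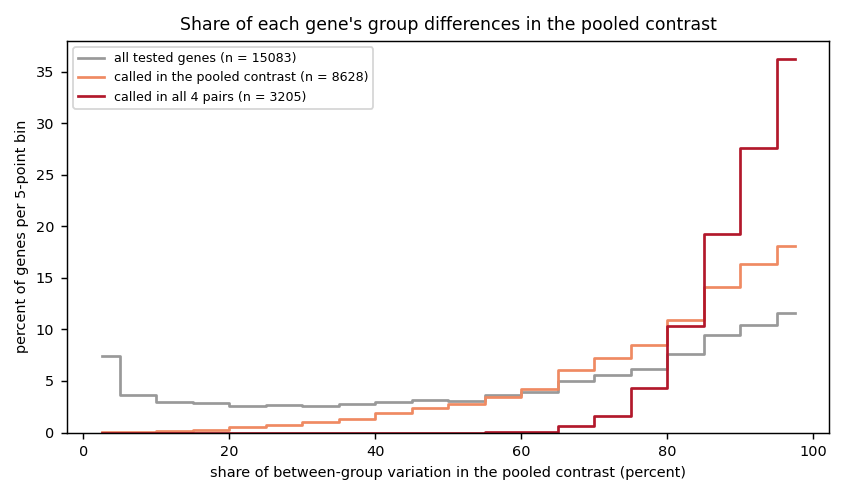
Share of the between-group variation of a gene that lies in the pooled contrast (percent, x axis) against the percent of genes in each 5-point bin (y axis), for all tested genes, called genes and genes called in all 4 pairs. The medians are 70.7%, 84.5% and 92.8%.

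Both differences within a side were tested in the same model. Of the common genes, 1715 higher and 803 lower ones had no call within either side. BaPs and pre-basophils differed in 141 of the 2032 common higher genes and in 303 of the 1173 common lower ones. Over all tested genes, this contrast called 421 higher (2.79%) and 647 lower (4.29%) in BaPs. All 303 of the common lower genes with this call were lower in BaPs than in pre-basophils. Spleen and BM mature basophils differed in 184 common higher genes, of which 183 were lower in spleen, while among the common lower genes 88 were higher and 13 lower in spleen. Over all tested genes, 477 were called higher (3.16%) and 704 lower (4.67%) in spleen. These contrasts use the same libraries as the pooled contrast, and the counts are a description of the common genes. Same-numbered libraries of the 3 BM groups deviated together, so the model was also fitted with replicate terms shared by these groups. In that fit BaPs had 721 genes called higher and 933 lower than pre-basophils, and spleen had 852 higher and 1025 lower than BM mature basophils. BaPs and pre-basophils then differed in 236 of 2172 common higher and in 394 of 1360 common lower genes, and spleen and BM mature basophils in 294 and 199 of them.

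Prss34, the gene of mast cell protease 11, had 17009, 44330.0 and 49584 CPM in the CLEC12A-high libraries and 883, 2384 and 5708 CPM in the mature libraries (log2 fold change 4.24, SE 0.23, edgeR adjusted p 7.45e-09). Mcpt8, which encodes mast cell protease 8, had 5008, 11433 and 12449 CPM in the CLEC12A-high libraries and 553, 1192 and 1828 CPM in the mature libraries (log2 fold change 3.30, SE 0.18, edgeR adjusted p 8.03e-09). The 6 libraries of one side did not overlap the 6 of the other for either gene, a separation seen upward in 2517 genes (16.7%) and downward in 1757 genes (11.6%). BaP replicate 3 was the lowest CLEC12A-high library for both, with 17009 and 5008 CPM. Both also differed within the mature side, since spleen levels were lower than BM levels with log2 differences of -2.46 for Prss34 and -1.41 for Mcpt8 (adjusted p 0.00114 and 0.00606 by edgeR). Between BaPs and pre-basophils neither passed the test (edgeR adjusted p 0.614 and 0.390).

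Clec12a, whose product was gated in the sort of pre-basophils and mature cells, had 129, 247 and 327 CPM in the CLEC12A-high libraries and 10.9, 22.9 and 39.1 CPM in the mature libraries (log2 fold change 3.53, SE 0.21, edgeR adjusted p 1.3e-08), in the direction of that gate. Of the other genes of gating proteins, Cd9 had a log2 fold change of -0.85, Cd34 of 1.14, Kit of 3.35 and Cd200r3 of -0.51 (edgeR adjusted p 3.62e-06, 7.53e-05, 4.95e-05 and 0.00481). None of these 4 was a common gene, and Itga2 is given with the integrin genes and Fcer1a with the IgE receptor genes. Mki67 had 431, 662 and 804 CPM in the CLEC12A-high libraries and 18.3, 41.7 and 109 CPM in the mature libraries (log2 fold change 3.88, SE 0.20, edgeR adjusted p 4.64e-09). All 6 CLEC12A-high libraries lay above all mature libraries for Clec12a and Mki67, and the lowest mature values were those of spleen.

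**Figure D3:**
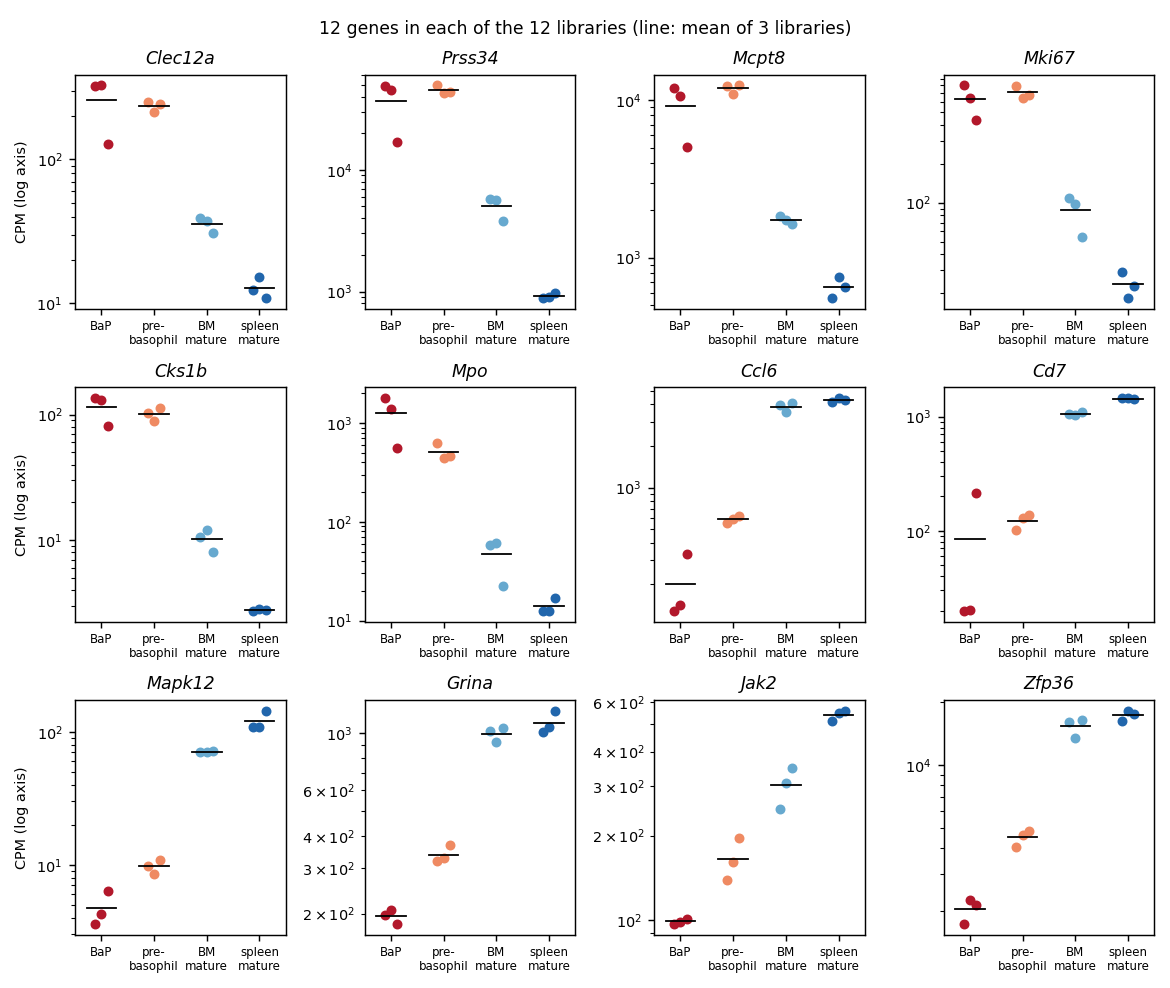
CPM (log axis) of 12 genes in each library, with 3 points per group and a line at the group mean. The 6 BaP and pre-basophil libraries lie above the 6 mature libraries for Clec12a, Prss34, Mcpt8, Mki67, Cks1b and Mpo, and below them for Ccl6, Cd7, Mapk12, Grina, Jak2 and Zfp36.

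Genes that copy DNA were higher on the CLEC12A-high side. All 31 tested members of the DNA replication list were called higher, where 31% of all tested genes were, and 30 of them were common genes. The list holds the helicase, primase, clamp loader and polymerase subunits and had a median log2 fold change of 2.39, against 0.00 over all genes. Lig1, the ligase that seals newly made strands, had 55.7, 68.9 and 107 CPM in the CLEC12A-high libraries and 2.39, 4.65 and 8.27 CPM in the mature libraries (log2 fold change 4.02, SE 0.21, edgeR adjusted p 4.04e-09). Prim1, the catalytic primase subunit, had 28.5, 36.6 and 51.8 against 1.59, 2.76 and 4.26 CPM (log2 fold change 3.77, SE 0.17, edgeR adjusted p 1.83e-09). The smallest change was that of Prim2, the other primase subunit, with 17.5, 20.4 and 28.4 against 9.08, 10.5 and 12.7 CPM (log2 fold change 0.98, SE 0.14, edgeR adjusted p 5.19e-05), and Gins4, a helicase subunit, followed with a log2 fold change of 1.05. Mcm7, a subunit of the replicative helicase, had 44.5, 59.7 and 76.0 against 7.86, 9.50 and 12.7 CPM (log2 fold change 2.63, SE 0.10, edgeR adjusted p 5.9e-10). For each of these 5 genes no CLEC12A-high library overlapped a mature one.

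Of 24 tested genes of nucleotide synthesis, 23 were called higher and 18 were common, with a median log2 fold change of 1.86. Rrm2, the regulatory subunit of ribonucleotide reductase, had 80.9, 135 and 213 CPM in the CLEC12A-high libraries and 3.63, 7.28 and 13.4 CPM in the mature libraries (log2 fold change 4.25, SE 0.25, edgeR adjusted p 1.12e-08). Mthfd2, a mitochondrial enzyme of folate metabolism, had 19.0, 24.9 and 40.4 against 0.640, 1.81 and 4.51 CPM (log2 fold change 3.98, SE 0.23, edgeR adjusted p 1.12e-08). The exception was Dck, the salvage enzyme deoxycytidine kinase, which was called lower with a log2 fold change of -0.49 (edgeR adjusted p 0.00170), a call that was lost with library totals alone (edgeR adjusted p 0.128) and without the 3 spleen libraries (0.169). Adsl, an enzyme of purine synthesis, was higher by 0.46 with overlapping sides.

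Mitotic genes were higher on the CLEC12A-high side as well. Of 28 tested mitotic kinases, cyclins and checkpoint genes, 27 were called higher and 26 were common, with a median log2 fold change of 3.62. All 33 kinesin, centromere and condensin genes were called higher and all 33 were common, with a median of 3.17. Aurka, the Aurora A kinase of the spindle poles, had 8.33, 12.1 and 15.3 CPM in the CLEC12A-high libraries and 0.165, 0.373 and 1.498 CPM in the mature libraries (log2 fold change 4.46, SE 0.33, edgeR adjusted p 1.06e-07). Bub1, a spindle checkpoint kinase, had 16.9, 21.1 and 33.0 against 0.133, 1.11 and 3.501 CPM (log2 fold change 4.36, SE 0.33, edgeR adjusted p 1.29e-07). Ncapg, a condensin subunit, had 25.4, 30.5 and 48.0 against 0.930, 1.78 and 2.86 CPM (log2 fold change 4.19, SE 0.19, edgeR adjusted p 1.81e-09), and Kif18b, a kinesin, had 7.26, 13.9 and 16.5 against 0, 0.882 and 2.25 CPM (log2 fold change 4.16, SE 0.34, edgeR adjusted p 2.55e-07). Mature values of these 4 genes were at most 3.501 CPM, close to the level that a few counts give, and Kif18b had 0 counts in spleen mature replicate 2. At the low end of both lists, among members with a mean of at least 10 CPM on the higher side, stood Kif23 (1.004), Smc4 (1.15) and Plk4 (1.27), and Pttg1, the securin gene, did not pass with 14.1, 14.9 and 20.9 against 12.96, 15.5 and 24.2 CPM (log2 fold change -0.11, SE 0.15, edgeR adjusted p 0.540).

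Among the genes with the lowest adjusted p in the upward direction were further genes of cell division. Ccnb2, the gene of cyclin B2 (ENSMUSG00000032218.7, GRCm38 chromosome 9, 70407692 to 70421547, protein coding), had 48.6, 84.7 and 107 CPM in the CLEC12A-high libraries and 2.08, 5.75 and 13.7 CPM in the mature libraries (log2 fold change 4.01, SE 0.15, edgeR adjusted p 5.9e-10). Cks1b, a small subunit that binds cyclin-dependent kinases (ENSMUSG00000028044.6, chromosome 3, 89415472 to 89418383, protein coding), had 81.1, 108 and 135 against 2.72, 5.43 and 12.02 CPM (log2 fold change 4.35, SE 0.16, edgeR adjusted p 5.9e-10). Top2a, the topoisomerase that untangles replicated DNA, had 239, 294 and 421 against 11.9, 19.6 and 44.6 CPM (log2 fold change 3.87, SE 0.16, edgeR adjusted p 7.52e-10). These 3 genes were between 14.7-fold and 20.4-fold higher in the CLEC12A-high libraries. Stmn1, which encodes the microtubule regulator stathmin, had 394, 506 and 702 against 12.9, 22.0 and 56.0 CPM (log2 fold change 4.44, SE 0.18, edgeR adjusted p 5.9e-10). Nucks1 and Hmgn1, which encode chromatin-binding proteins, had log2 fold changes of 2.19 (SE 0.09) and 2.82 (SE 0.11). Depdc1a and Pimreg, both expressed in dividing cells, had log2 fold changes of 5.23 and 4.67. Sides did not overlap for any of these genes, since the rule that named them required it.

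Promoters of a few genes, chosen by hand, are shown. Ccnb2 and Top2a are members of the mitotic lists and Mcm7 and Mcm5 of the replication list, while Mki67 and Cks1b are in none of these. Their matches do not stand for the lists, whose shares are given below. The windows run from 250 bases before to 50 bases after the RefSeq start on GRCm38.p6, 5′ to 3′ on the strand of the gene. Prss34, a protease gene of granules, is shown beside them. In every window capitals mark 4 motifs on either strand, namely TTTGAA, the letters of the cell cycle homology region (CHR), CCAAT, the E2F forms TTTCCCGC and TTTGGCGC, and the GATA form AGATAA. No matches overlapped in these windows. The RefSeq table holds 2 starts for Mcm7, and both windows are shown.
Ccnb2 (chr9:70421505-70421804, minus strand): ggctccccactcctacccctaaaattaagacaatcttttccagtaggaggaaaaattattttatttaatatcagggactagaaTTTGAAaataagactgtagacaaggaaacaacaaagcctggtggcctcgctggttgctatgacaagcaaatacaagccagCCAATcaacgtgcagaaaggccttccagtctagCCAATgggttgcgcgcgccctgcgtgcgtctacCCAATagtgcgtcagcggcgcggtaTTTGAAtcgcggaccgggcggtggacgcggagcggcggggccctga
Top2a (chr11:99024140-99024439, minus strand): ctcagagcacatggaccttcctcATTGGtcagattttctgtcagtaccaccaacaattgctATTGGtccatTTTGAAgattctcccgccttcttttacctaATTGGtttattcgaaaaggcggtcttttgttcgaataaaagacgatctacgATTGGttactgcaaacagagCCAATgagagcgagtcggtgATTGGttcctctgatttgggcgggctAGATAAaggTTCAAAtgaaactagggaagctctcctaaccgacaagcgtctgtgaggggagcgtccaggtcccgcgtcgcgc
Mki67 (chr7:135716330-135716629, minus strand): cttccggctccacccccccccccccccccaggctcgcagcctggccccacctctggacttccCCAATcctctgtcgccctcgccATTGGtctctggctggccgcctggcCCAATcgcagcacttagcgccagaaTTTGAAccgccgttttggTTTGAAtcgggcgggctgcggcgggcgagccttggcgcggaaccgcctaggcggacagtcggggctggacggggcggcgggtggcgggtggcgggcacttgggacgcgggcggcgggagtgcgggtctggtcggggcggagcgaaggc
Cks1b (chr3:89418242-89418541, minus strand): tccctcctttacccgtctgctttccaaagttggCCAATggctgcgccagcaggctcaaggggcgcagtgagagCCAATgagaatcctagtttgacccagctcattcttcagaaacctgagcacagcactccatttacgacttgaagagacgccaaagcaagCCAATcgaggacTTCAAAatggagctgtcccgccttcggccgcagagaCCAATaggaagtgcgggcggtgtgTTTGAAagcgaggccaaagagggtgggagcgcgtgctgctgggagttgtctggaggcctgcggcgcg
Mcm7, first start (chr5:138171834-138172133, minus strand): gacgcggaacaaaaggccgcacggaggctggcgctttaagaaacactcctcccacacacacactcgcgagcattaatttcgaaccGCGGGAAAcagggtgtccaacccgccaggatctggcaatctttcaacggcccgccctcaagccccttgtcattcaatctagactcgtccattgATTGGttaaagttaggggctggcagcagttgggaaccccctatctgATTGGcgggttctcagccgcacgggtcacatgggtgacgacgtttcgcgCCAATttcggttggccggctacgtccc
Mcm7, second start (chr5:138171217-138171516, minus strand): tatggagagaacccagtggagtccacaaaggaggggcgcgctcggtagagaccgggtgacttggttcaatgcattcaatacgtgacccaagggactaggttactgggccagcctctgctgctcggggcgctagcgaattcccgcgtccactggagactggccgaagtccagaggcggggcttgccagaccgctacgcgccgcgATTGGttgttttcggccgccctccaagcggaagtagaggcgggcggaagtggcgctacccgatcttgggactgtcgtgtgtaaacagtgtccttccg
Mcm5 (chr8:75109259-75109558, plus strand): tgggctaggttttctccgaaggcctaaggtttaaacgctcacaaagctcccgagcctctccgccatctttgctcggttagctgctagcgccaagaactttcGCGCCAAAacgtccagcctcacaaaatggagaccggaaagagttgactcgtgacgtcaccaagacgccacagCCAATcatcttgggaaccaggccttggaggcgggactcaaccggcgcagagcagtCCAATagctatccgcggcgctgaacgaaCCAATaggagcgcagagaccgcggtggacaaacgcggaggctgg
Prss34 (chr17:25298144-25298443, plus strand): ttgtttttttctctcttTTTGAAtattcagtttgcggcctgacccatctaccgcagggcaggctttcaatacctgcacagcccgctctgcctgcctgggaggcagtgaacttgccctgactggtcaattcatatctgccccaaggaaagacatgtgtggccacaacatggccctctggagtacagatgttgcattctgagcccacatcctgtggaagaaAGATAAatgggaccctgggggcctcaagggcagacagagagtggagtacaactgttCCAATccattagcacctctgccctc

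Each of the first 4 windows held 2 TTTGAA matches, and they held 3, 6, 3 and 4 CCAAT matches in the order shown, with 1 GATA match in Top2a. The E2F letters stood once in Mcm5 and once in the first Mcm7 window, and the second Mcm7 window held none of them. Prss34 held 1 match each of the CHR, CCAAT and GATA letters. Of 61 tested genes in both mitotic lists, 85.2% had a window in the RefSeq table, 57 windows in all. TTTGAA stood in 68.4% of these windows, against 17.9% of all 32851 windows of the table, and CCAAT in 75.4% against 37.4%. The 29 windows of the DNA replication list, which covered 80.6% of its genes, held TTTGAA in 13.8% and one of the E2F letters in 34.5%, against 1.56% of all windows. In the 13 windows of the protease list, TTTGAA stood in 38.5%, and AGATAA in 23.1% against 11.2% of all windows. TTTGAA also stood in 36.4% of the 11 windows of the histamine and lipid mediator list. In the 26 windows of the immediate-early list, TGACGTCA, the cyclic AMP response element, stood in 3.85% against 1.79% of all windows, and TGAGTCA, the AP-1 motif, in 0 of 26 against 5.20%. For the common genes only 71.3% of higher and 70.1% of lower ones matched a window, so a comparison over these sets was void and is not given. The shares describe letters in these windows and were not tested.

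Mitotic genes and genes of ribosome assembly also had calls between the groups within a side. Of the 61 mitotic genes, 31 were called lower in spleen than in BM mature basophils (19 of 33 kinesin, centromere and condensin genes and 12 of 28 kinases, cyclins and checkpoint genes), with a median log2 fold change of -1.12. Between BaPs and pre-basophils only Ccnb2 was called in these lists, lower in BaPs with a log2 fold change of -0.62 (edgeR adjusted p 0.0423). Of 30 tested ribosome biogenesis genes, 18 were called higher in BaPs than in pre-basophils, with a median of 0.81, against 2.79% of all tested genes. Between spleen and BM 3 were called (2 higher and 1 lower in spleen), where 3.16% of all tested genes were higher and 4.67% lower. With the replicate terms shared by the BM groups, 2 genes of the kinesin list were called lower in BaPs. The counts within a side moved when 1 library was left out. For the kinesin list they ran from 7 (without spleen mature replicate 3) to 24 (without BaP replicate 3), with 12 or fewer also without pre-basophil replicate 2, any BM mature replicate or spleen mature replicate 2. For the kinase list they ran from 4 (without BM mature replicate 1 or spleen mature replicate 3) to 15 (without BaP replicate 3), with 6 without BM mature replicate 2. The ribosome count ran from 10 (without pre-basophil replicate 2) to 20 (without BaP replicate 3). No test compared the patterns themselves.

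DNA replication genes in BaPs against pre-basophils depended on BaP replicate 3. With all libraries 2 of 31 were called higher in BaPs, where 2.79% of all tested genes were, although the median log2 fold change was 0.47. Without BaP replicate 3, 21 of 31 were called higher, and with library totals alone 15. For nucleotide synthesis the count was 17 of 24 in either case, in place of 7, and 3 without pre-basophil replicate 2 or 3.

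**Figure D4:**
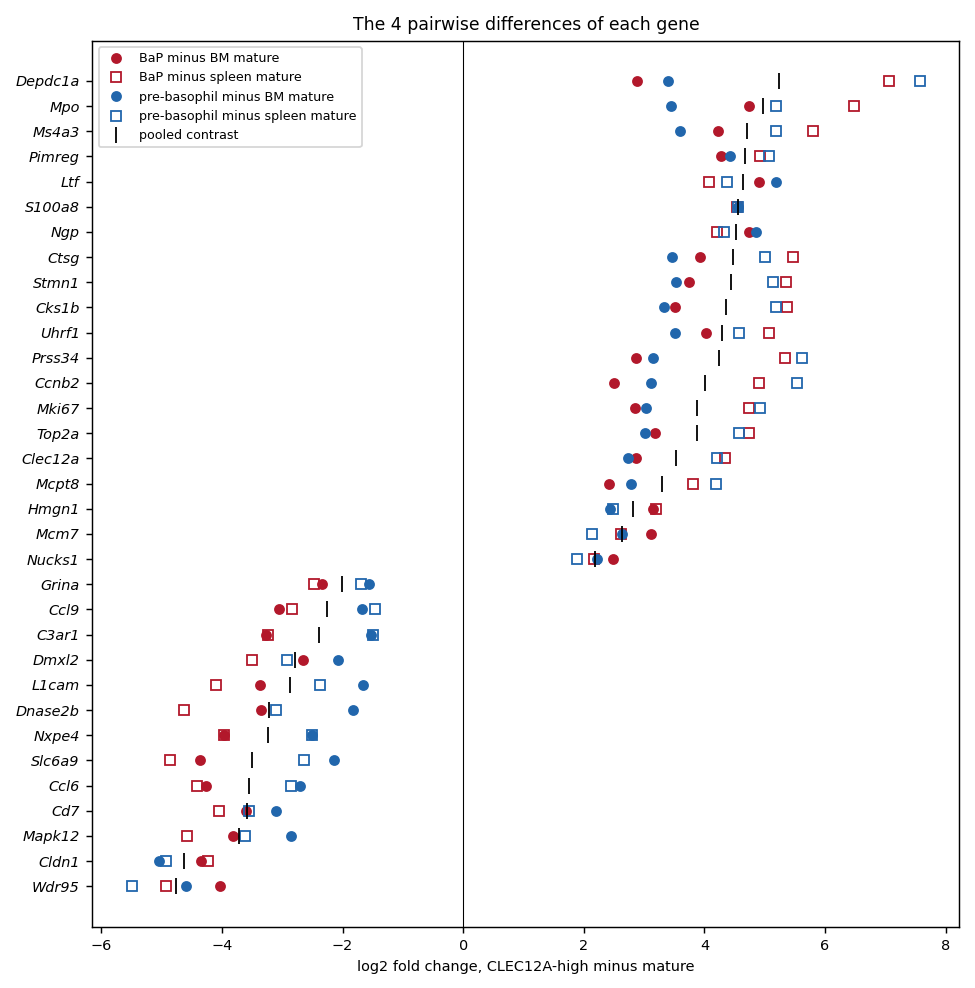
Log2 fold changes (x axis) of each of 4 pairwise comparisons, with filled symbols for BM mature and open squares for spleen mature basophils as the reference and a bar for the pooled contrast, for 33 genes ordered by the pooled value. All points of a gene lie on one side of 0, which the naming rule required for all but the 4 markers. The open squares of Depdc1a, Prss34 and Ccnb2 lie farther from 0 than the filled circles.

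Regulators of the cell cycle moved in a mixed way. Of 17 transcription regulators, 12 were called higher and Rbl2, a pocket protein that represses cell cycle genes in resting cells, was called lower with 53.0, 69.6 and 97.1 against 99.7, 119.5 and 129 CPM (log2 fold change -0.72, SE 0.11, edgeR adjusted p 6.34e-05). Foxm1, an activator of mitotic genes, had 21.2, 34.6 and 38.9 CPM in the CLEC12A-high libraries and 1.59, 3.90 and 6.05 CPM in the mature libraries (log2 fold change 3.18, SE 0.24, edgeR adjusted p 1.32e-07), and Mybl2, which acts with it, had 12.4, 17.9 and 37.5 against 1.92, 3.22 and 3.795 CPM (log2 fold change 2.85, SE 0.23, edgeR adjusted p 2.36e-07). Rb1, the retinoblastoma gene, did not pass, with 25.7, 30.0 and 34.3 against 24.5, 30.6 and 38.0 CPM. Of 16 G1 cyclins, kinases and brakes, 10 were called higher (62.5%) and 5 lower (31.2%), against 31% and 26.2% of all tested genes. Cdk4 and the CDK inhibitor gene Cdkn2c were higher by 2.28 and 2.74 on the log2 scale (adjusted p 1.82e-09 and 1.29e-07 by edgeR). Btg2 and Btg1, which encode antiproliferative proteins, had -1.25 and -0.76 (edgeR adjusted p 2.23e-07 and 2.57e-06), and the others called lower were Ccnd2, Cdkn1b and Ccng2. Only 2 of these 5 were called lower with library totals alone.

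Genes of maintenance methylation and polycomb complexes were called higher in 8 of 17 cases (47.1%) and lower in 3 (17.6%). The shares over all tested genes were 31% and 26.2%. Uhrf1, which brings the methyltransferase to newly copied DNA, had 33.1, 35.3 and 58.0 CPM in the CLEC12A-high libraries and 1.06, 2.28 and 3.18 CPM in the mature libraries (log2 fold change 4.30, SE 0.17, edgeR adjusted p 5.9e-10). Dnmt1 itself had a log2 fold change of 2.37, and Ezh2, a polycomb methyltransferase, had 1.12. Cbx5, a heterochromatin protein, had 58.4, 76.9 and 103 against 7.30, 11.4 and 14.3 CPM (log2 fold change 2.88, SE 0.12, edgeR adjusted p 1e-09). Those called lower were Ezh1 (-0.89), the paralogue of Ezh2, the demethylase Kdm6b (-0.83) and Eed (-0.31). The de novo methyltransferases Dnmt3a and Dnmt3b and all 3 Tet genes did not pass.

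Genes for folding and export of proteins in the endoplasmic reticulum (ER) were higher in 22 of 24 cases, and 19 were common, with a median log2 fold change of 1.45. Sdf2l1, an ER chaperone cofactor, had 119, 146 and 397 CPM in the CLEC12A-high libraries and 5.71, 9.40 and 21.004 CPM in the mature libraries (log2 fold change 4.15, SE 0.27, edgeR adjusted p 2.55e-08). Calr, the lectin chaperone calreticulin, had 1015, 1288 and 3419 against 175, 193 and 305 CPM (log2 fold change 2.95, SE 0.23, edgeR adjusted p 1.62e-07). Hspa5, the chaperone BiP, did not follow, with 2429, 4013 and 6926 against 3287, 3877 and 4272 CPM (log2 fold change 0.13, SE 0.20, edgeR adjusted p 0.602), and Dnajb9, a cofactor of BiP, was called lower (-0.47, edgeR adjusted p 0.00507). Without BaP replicate 3 Hspa5 was called, at 0.29 (adjusted p 0.0283). Ribosome biogenesis genes were called higher in 22 of 30 cases, of which 8 were common, with a median of 0.78. Rrs1 and Nop10 had the largest values among members with at least 10 CPM, with log2 fold changes of 2.17 and 1.80, and Nop14 and Polr1e did not pass (0.04 and -0.23).

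Granule proteases had calls in both directions. Of 13 tested, 7 were called higher (53.8%) and 2 lower (15.4%), against 31% and 26.2% of all tested genes. Ctsg, the gene of cathepsin G, had 767, 1345 and 2489 CPM in the CLEC12A-high libraries and 34.6, 61.3 and 140.0 CPM in the mature libraries (log2 fold change 4.47, SE 0.27, edgeR adjusted p 1.49e-08), and Cpa3, carboxypeptidase A3, had 876, 1817 and 2449 against 329, 465 and 619 CPM (log2 fold change 1.97, SE 0.19, edgeR adjusted p 1.08e-06). Ctsd, the lysosomal cathepsin D, was lower, with 338, 439.8 and 581 against 905, 1146 and 1622 CPM (log2 fold change -1.44, SE 0.08, edgeR adjusted p 1.17e-08), and so was the membrane peptidase Dpp4 (-0.70, edgeR adjusted p 5.59e-05). Neither side overlapped the other for these 4 genes.

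Genes of primary and secondary granules of neutrophils were among the largest increases. Of the 17 tested genes of the neutrophil list, 16 were called higher, 14 were common in that direction, and the median log2 fold change was 4.18. Mpo, the gene of myeloperoxidase (ENSMUSG00000009350.13, chromosome 11, 87793581 to 87804413, protein coding), had 441, 593 and 1792 CPM in the CLEC12A-high libraries and 12.5, 19.5 and 61.1 CPM in the mature libraries (log2 fold change 4.96, SE 0.31, edgeR adjusted p 2.18e-08). Ms4a3, a gene of granulocyte and monocyte progenitors, had 157, 226 and 449 against 5.18, 7.52 and 26.5 CPM (log2 fold change 4.70, SE 0.30, edgeR adjusted p 2.16e-08). Both were also lower in spleen than in BM mature cells, and Mpo was higher in BaPs than in pre-basophils by 1.30 (edgeR adjusted p 0.0495). Ltf, S100a8 and Ngp, which encode lactoferrin, a calprotectin subunit and a granule protein, had log2 fold changes of 4.64, 4.55 and 4.53 with SEs of 0.68, 0.67 and 0.67. S100a8 had 14.6, 138 and 370.1 CPM in BaP replicates 1, 2 and 3 and 45.3, 148 and 333 CPM in pre-basophil replicates 1, 2 and 3, while mature libraries had at most 12.4 CPM. For all 3 genes replicate 1 was the lowest and replicate 3 the highest in both groups. The list summed to 2575 to 4535 CPM in CLEC12A-high and to 303 to 499 CPM in mature libraries. The member not called higher was Cxcr2, a chemokine receptor of mature neutrophils, with 26.0, 46.6 and 76.9 against 158, 184 and 223 CPM (log2 fold change -2.02, SE 0.11, edgeR adjusted p 6.67e-09). Prg2 and Epx, genes of eosinophil granule proteins, were also called higher, but neither was a common gene. Prg2 had 15.1, 27.8 and 108 against 1.92, 3.99 and 24.3 CPM, with an SE of 0.48 on a log2 fold change of 2.90. Of the other eosinophil markers, Siglecf and Ccr3 were called lower and were common, with log2 fold changes of -1.55 and -2.08. Ear1 and Il5ra, the remaining tested members of that list, did not pass. Whether the reads of the neutrophil list came from the sorted basophil precursors or from other cells was not tested.

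Wdr95, Cldn1 and Mapk12 were among the genes with the largest decreases. Wdr95, a gene of a WD repeat protein (ENSMUSG00000029658.17, chromosome 5, 149528679 to 149611894, protein coding), had 2.19, 2.95 and 11.5 CPM in the CLEC12A-high libraries and 100.7, 153 and 221 CPM in the mature libraries (log2 fold change -4.77, SE 0.30, edgeR adjusted p 2.21e-08). Cldn1, which encodes the tight junction protein claudin 1, had 0, 0.597 and 1.74 against 14.5, 19.2 and 29.1 CPM (log2 fold change -4.64, SE 0.42, edgeR adjusted p 6.93e-07), with 0 counts in BaP replicate 1 and pre-basophil replicate 1. Mapk12, the p38 gamma kinase (ENSMUSG00000022610.10, chromosome 15, 89130584 to 89140703, protein coding), had 3.58, 7.46 and 10.9 against 70.4, 90.1 and 144 CPM (log2 fold change -3.72, SE 0.14, edgeR adjusted p 5.9e-10). The highest CLEC12A-high value of each stayed below the lowest mature value, since the rule that named them required it. Cd7, which encodes an immunoglobulin-family receptor of lymphocytes, had 19.8, 115 and 213 against 1035, 1256 and 1454 CPM (log2 fold change -3.58, SE 0.47, edgeR adjusted p 1.99e-05), and its BaP values were 19.8, 20.3 and 213 CPM. Slc6a9, a glycine transporter, and Dnase2b, an acid DNase, had log2 fold changes of -3.4999 and -3.23.

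Further lower genes were named for their low adjusted p, and the rule that named them also required sides without overlap. Grina, which encodes a membrane protein of the TMBIM family, had 182, 263 and 367 CPM in the CLEC12A-high libraries and 919.7, 1032 and 1217 CPM in the mature libraries (log2 fold change -2.02, SE 0.08, edgeR adjusted p 7.73e-10). Dmxl2, a regulator of the vacuolar proton pump, had 16.7, 21.02 and 28.3 against 104, 149 and 227 CPM (log2 fold change -2.79, SE 0.09, edgeR adjusted p 5.9e-10). L1cam, an adhesion molecule, had 12.3, 28.4 and 54.3 against 145, 183 and 270.0 CPM (log2 fold change -2.87, SE 0.11, edgeR adjusted p 5.9e-10), and Nxpe4 had 4.30, 11.8 and 17.8 against 90.1, 96.3 and 104.8 CPM (log2 fold change -3.24, SE 0.11, edgeR adjusted p 5.9e-10). All 4 were lower in BaPs than in pre-basophils as well, with log2 fold changes of -0.79, -0.58, -1.72 and -1.45.

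Of 26 tested genes of the IgE receptor and its proximal signalling, 2 were called higher (7.69%) and 13 lower (50%), of which 8 were common. The other 11 were not called, and the shares over all tested genes were 31% and 26.2%. The median log2 fold change was -0.35. Those higher were the receptor subunits Ms4a2, with 413, 959.6 and 1008 CPM in the CLEC12A-high libraries and 297, 429 and 615 CPM in the mature libraries (log2 fold change 1.05, SE 0.16, edgeR adjusted p 8.2e-05), and Fcer1a, with 537, 1453 and 1696 against 462, 709 and 934 CPM (log2 fold change 0.92, SE 0.18, edgeR adjusted p 0.000551). BaP replicate 3 was the lowest CLEC12A-high library for both, so that the sides overlapped, and Fcer1a was not called without the 3 spleen libraries (0.51, adjusted p 0.110). The signalling subunit gene Fcer1g did not pass (log2 fold change -0.02, SE 0.12, edgeR adjusted p 0.883). Plcg1, a phospholipase downstream of the receptor, had 7.83, 14.5 and 17.6 against 21.9, 30.8 and 44.2 CPM (log2 fold change -1.11, SE 0.15, edgeR adjusted p 3.4e-05), and Gab2, an adaptor, had 73.8, 129 and 167 against 221, 258 and 277 CPM (log2 fold change -1.09, SE 0.09, edgeR adjusted p 1.9e-07). The kinases Syk, Btk and Lyn had log2 fold changes of -0.96, -0.94 and -0.67. There were 6 members called higher with library totals alone.

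Of 11 tested genes for histamine and lipid mediators, 4 were called higher (36.4%) and 3 lower (27.3%), near the 31% and 26.2% of all tested genes. Hdc, the enzyme that makes histamine, had 495, 1074 and 1904 CPM in the CLEC12A-high libraries and 1476, 2242 and 2810.4 CPM in the mature libraries (log2 fold change -1.01, SE 0.20, edgeR adjusted p 0.000658) and was also lower in BaPs than in pre-basophils. It was not called without the 3 BaP libraries (-0.42, edgeR adjusted p 0.0666). Ptgs2, the inducible cyclooxygenase, had 150.0, 306 and 494 against 563, 648 and 1009 CPM (log2 fold change -1.28, SE 0.15, edgeR adjusted p 6.79e-06). Lta4h, an enzyme of leukotriene B4 synthesis, had 75.2, 78.1 and 94.6 against 37.8, 43.1 and 44.7 CPM (log2 fold change 0.94, SE 0.08, edgeR adjusted p 3.69e-07), and Alox5, 5-lipoxygenase, had 259, 619 and 672 against 298, 346 and 439.5 CPM (log2 fold change 0.67, SE 0.16, edgeR adjusted p 0.00306). The others were Ptges and Pla2g4a among those higher and Alox5ap among those lower. Sides overlapped for Hdc and Alox5 and not for Ptgs2 and Lta4h.

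Several CC chemokine genes were lower on the CLEC12A-high side. Of 19 cytokine and chemokine genes, 8 were called lower (42.1%), of which 6 were common, and 5 higher (26.3%), of which none was common. Over all tested genes 26.2% were lower and 31% higher. Ccl6, a CC chemokine (ENSMUSG00000018927.3, chromosome 11, 83587882 to 83593087, protein coding), had 128, 445 and 622 CPM in the CLEC12A-high libraries and 3535, 4108 and 4453 CPM in the mature libraries (log2 fold change -3.56, SE 0.20, edgeR adjusted p 9.95e-09). Its neighbour Ccl9 had 432, 895 and 1285 against 3142, 3699 and 4154 CPM (log2 fold change -2.26, SE 0.09, edgeR adjusted p 5.9e-10). Ccl3, Ccl4, Csf1, Osm, Lif and Il4 made up the rest of those called lower, from -0.82 for Il4 to -2.18 for Lif. Those called higher were Spp1, Tnf, Il1b, Il6 and Tgfb1. Tnf had 94.9, 248 and 328 against 31.4, 91.4 and 164 CPM (log2 fold change 1.59, SE 0.16, edgeR adjusted p 2.25e-06), with 153 ± 13.9 CPM in BM and 36.3 ± 7.58 CPM in spleen mature basophils (SD, n = 3 each), and it was not called without the spleen libraries (0.53, adjusted p 0.0555). Without those libraries only 1 gene of the list was called higher. In BaPs 11 of the 19 genes were lower than in pre-basophils, where 4.29% of all tested genes were. Without pre-basophil replicate 1 or 3 the count was 6.

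Receptors for cytokines were called lower in 12 of 27 cases (44.4%), 9 of them common, and higher in 7 (25.9%). The shares over all tested genes were 26.2% and 31%. Il10ra, the ligand-binding chain of the IL-10 receptor, had 3.11, 5.63 and 17.6 CPM in the CLEC12A-high libraries and 33.1, 43.7 and 77.0 CPM in the mature libraries (log2 fold change -2.59, SE 0.33, edgeR adjusted p 1.58e-05), and Il7r, the IL-7 receptor chain, had 8.72, 31.9 and 47.4 against 96.0, 124 and 159 CPM (log2 fold change -2.07, SE 0.32, edgeR adjusted p 7.42e-05). Csf2rb, the shared chain of the IL-3, IL-5 and GM-CSF receptors, had a log2 fold change of -1.45, and Csf2rb2, a close copy with which reads can be confused, had -1.56. Il18r1 and Il18rap, the IL-18 receptor chains, had -1.83 and -1.16, and Il1rl1, the IL-33 receptor, had -0.32. Il3ra did not pass (0.04). Among those higher, Csf2ra, the GM-CSF receptor chain, had 21.8, 27.1 and 33.7 against 11.6, 14.2 and 25.04 CPM (log2 fold change 0.77, SE 0.15, edgeR adjusted p 0.000514) and was not called without the spleen libraries (edgeR adjusted p 0.0624). Ifngr1 passed narrowly (edgeR adjusted p 0.0420), and its call was lost when any 1 of 10 libraries was left out, with BaP replicate 3 as the highest library at 193 CPM.

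Kinases and transducers of these receptors were lower in 11 of 18 cases (61.1%), against 26.2% of all tested genes, and none was called higher. With the replicate terms shared by the BM groups the counts were 13 and 1. Jak2, the kinase used by the IL-3 receptor (ENSMUSG00000024789.13, chromosome 19, 29251828 to 29313080, protein coding), had 96.7, 119.9 and 197 CPM in the CLEC12A-high libraries and 250.1, 431 and 559 CPM in the mature libraries (log2 fold change -1.66, SE 0.10, edgeR adjusted p 1.78e-08). Socs2, a feedback inhibitor, had 2.36, 3.68 and 9.59 against 11.4, 12.7 and 15.8 CPM (log2 fold change -1.41, SE 0.31, edgeR adjusted p 0.00143). Stat6 and Stat5b had log2 fold changes of -1.11 and -0.86. Stat3 and Cish did not pass (-0.04 and 0.39), but Cish was called with these replicate terms (0.38, edgeR adjusted p 0.0206). Jak2 was ordered across all groups, with 98.7 ± 2.08 CPM in BaPs, 166 ± 29.3 in pre-basophils, 303 ± 49.8 in BM and 540.0 ± 23.8 in spleen mature basophils (SD, n = 3 each), and each neighbouring pair differed (edgeR adjusted p 0.00782, 0.000551 and 0.00583).

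Homing and adhesion receptors were called lower in 20 of 30 cases (66.7%), of which 14 were common, and higher in 4 (13.3%). The shares over all tested genes were 26.2% and 31%, and the median log2 fold change of the list was -0.81. C3ar1, the receptor for complement fragment C3a, had 15.8, 41.6 and 72.4 CPM in the CLEC12A-high libraries and 181, 189 and 199.7 CPM in the mature libraries (log2 fold change -2.39, SE 0.09, edgeR adjusted p 5.9e-10), and C5ar1, the C5a receptor, had -2.04. Ccr3 and Ccr2, receptors for eotaxins and for CCL2, had -2.08 and -1.68 (edgeR adjusted p 8.94e-05 and 0.000521). Integrin genes Itgb3, Itga2, Itgam, Itgb7, Itgb1, Itgal and Itga2b were lower, from -2.01 for Itgb3 to -0.45 for Itga2b. All of them but Itga2b were common. The integrin genes Itga4 and Itgb2 did not pass, with 0.66 and 0.10 (edgeR adjusted p 0.0617 and 0.273). Those higher were Fpr2 (3.67), a formyl peptide receptor, the tetraspanin gene Cd81 (1.99), the leukotriene B4 receptor gene Ltb4r1 (1.19) and Cxcr4 (0.86), the receptor that holds cells in the marrow. Fpr2 had means of only 2.34 against 0.17 CPM (SE 0.86), close to the level that a few counts give. The count higher was 7 with library totals alone. Of the 30 genes, 13 were lower in BaPs than in pre-basophils and 1 was higher, against 4.29% and 2.79% of all tested genes.

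Of 23 tested inhibitory and paired receptor genes, 7 were called higher (30.4%) and 10 lower (43.5%), where the shares over all tested genes were 31% and 26.2%. Cd24a, a small anchored glycoprotein of immature cells, had 52.5, 101.4 and 159.8 CPM in the CLEC12A-high libraries and 7.96, 9.37 and 18.6 CPM in the mature libraries (log2 fold change 3.16, SE 0.15, edgeR adjusted p 2.25e-09), and Pirb, an inhibitory receptor, had 2.87, 9.27 and 15.4 against 35.3, 48.0 and 61.6 CPM (log2 fold change -2.27, SE 0.23, edgeR adjusted p 2.25e-06). The leukocyte receptors Lilrb4a and Lilr4b, whose sequences are alike, had -1.68 and -1.80. Those called lower numbered 6 with library totals alone.

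Immediate-early genes were lower in 17 of 27 cases (63%), where 26.2% of all tested genes were. Of these 17, 11 were common, and the median log2 fold change of the list was -0.94. Zfp36, the mRNA-decay factor tristetraprolin (ENSMUSG00000044786.6, chromosome 7, 28376784 to 28380253, protein coding), had 1729.7, 3152 and 4827 CPM in the CLEC12A-high libraries and 13499, 16316 and 18178 CPM in the mature libraries (log2 fold change -2.43, SE 0.10, edgeR adjusted p 7.94e-10). Ier5 had 135, 228 and 308 against 989.8, 1218 and 1766 CPM (log2 fold change -2.53, SE 0.16, edgeR adjusted p 1.82e-08). Jun, Junb, Egr1 and Fos had log2 fold changes of -1.97, -2.13, -1.76 and -1.503. Only Klf4 was called higher, with 16.3, 37.9 and 66.9 against 9.90, 15.0 and 42.3 CPM (log2 fold change 1.0003, SE 0.30, edgeR adjusted p 0.0110), and it was not called without the spleen libraries (adjusted p 0.495). The part of cell handling was not tested. In this list 13 genes were also lower in BaPs than in pre-basophils, where 4.29% of all tested genes were. Without pre-basophil replicate 1, 2 or 3 that count was 7, 4 and 4.

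The NF-kB list and the Toll-like and IL-1 pathway pointed the same way, with 50% and 62.5% called lower, against 26.2% of all tested genes. Of 18 NF-kB genes, 9 were called lower and Icam1 was called higher (0.52, edgeR adjusted p 0.000593), a value that turned to -0.10 without the spleen libraries. Nfkbid had 88.9, 152 and 224 CPM in the CLEC12A-high libraries and 275, 505 and 595 CPM in the mature libraries (log2 fold change -1.68, SE 0.14, edgeR adjusted p 2.93e-07). Nfkbiz, which like Nfkbid encodes a nuclear protein of the IκB family, had 963, 1917 and 2565 against 4425, 5732 and 5784 CPM (log2 fold change -1.61, SE 0.12, edgeR adjusted p 7.41e-08). Of 16 Toll-like and IL-1 pathway genes, 10 were called lower and Pycard, the inflammasome adaptor, was called higher with 62.3, 75.6 and 81.1 against 23.8, 38.1 and 53.3 CPM (log2 fold change 1.01, SE 0.09, edgeR adjusted p 6.48e-07). Myd88, the shared adaptor, had 25.1, 33.3 and 45.5 against 49.6, 67.8 and 90.1 CPM (log2 fold change -1.004, SE 0.11, edgeR adjusted p 3.4e-06), and Nlrp3 had a log2 fold change of -0.80. With library totals alone, 5 genes of each list were called lower, and the Toll-like and IL-1 count was 6 without pre-basophil replicate 1 or BM mature replicate 3.

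**Figure D5:**
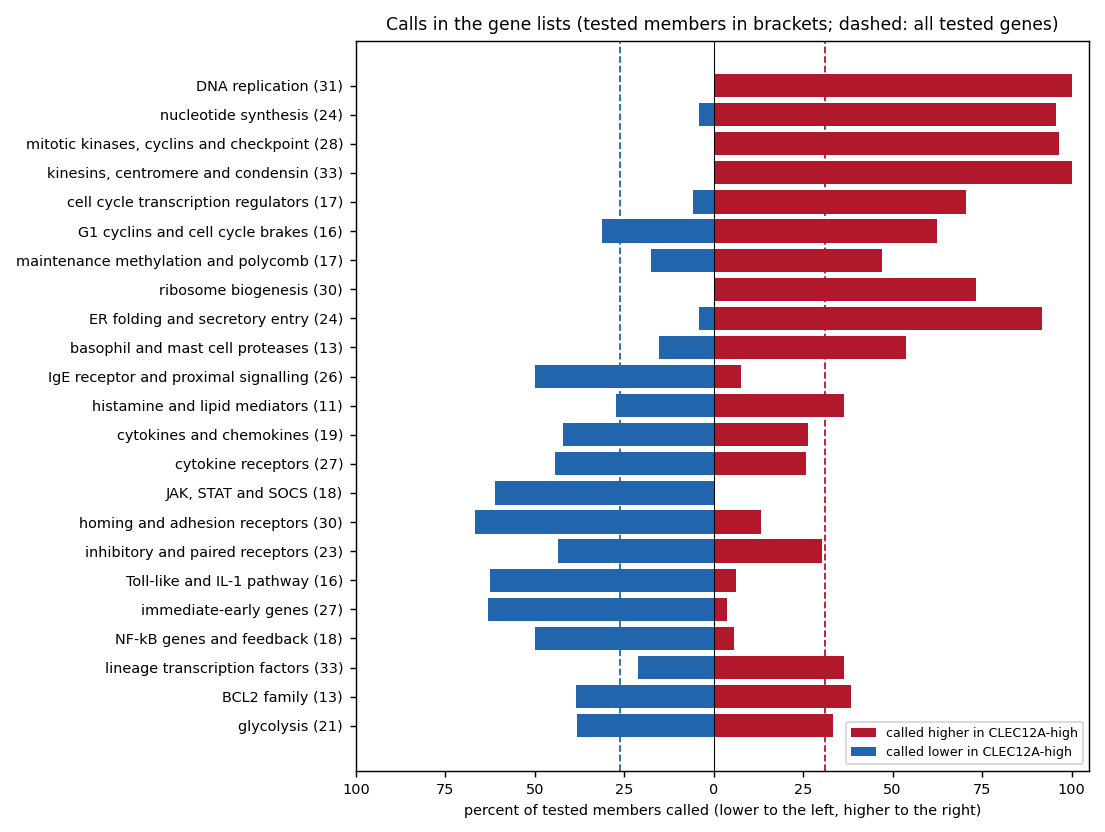
Percent of tested members called higher (right, red) or lower (left, blue) on the CLEC12A-high side for 23 gene lists, with the number of tested members in brackets and dashed lines at 31% and 26.2% for all tested genes. DNA replication and the kinesin, centromere and condensin list reach 100% on the right, and the JAK, STAT and SOCS list has no bar there.

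Markers of other cell types were examined because the libraries are bulk. The B cell list summed to 69.0 to 416 CPM on the CLEC12A-high side and to 68.1 to 1002 CPM on the mature side, where the 3 spleen libraries lay between 615 and 1002 CPM. It had 7 of 14 genes called lower (50%), 12 with the replicate terms shared by the BM groups and none without the spleen libraries. In spleen 10 of 14 were called higher than in BM (6 without BM mature replicate 1 or 3), where 3.16% of all tested genes were. Cd74, the invariant chain, had 2.80, 11.3 and 45.5 against 7.01, 98.2 and 313 CPM (log2 fold change -2.16, SE 0.42, edgeR adjusted p 0.000609). No gene of the T and NK cell list was called lower with all libraries, and 9 of 12 were without BaP replicate 3. In that library the T cell receptor genes Trbc1 and Trbc2 had 103 and 63.7 CPM, where the other CLEC12A-high libraries had at most 2.399 and 1.12 CPM. The gene called higher in this list was Nkg7, a granule gene of cytotoxic cells, with 190.1, 272 and 485 against 37.6, 54.5 and 77.3 CPM (log2 fold change 2.46, SE 0.12, edgeR adjusted p 3.11e-09). Erythroid and megakaryocyte genes had 3 called lower (25%), 5 with these replicate terms and 9 without BaP replicate 3. Monocyte and macrophage genes had 3 (23.1%) with all libraries and 6 without BaP replicate 3. Both shares with all libraries were near the 26.2% of all tested genes. Of 11 tested stem and progenitor markers 5 were called higher (45.5%) and 1 lower (9.09%). Of 3 mast cell markers 2 were higher and none lower, and of 6 eosinophil markers 2 (33.3%) were called in each direction. The shares over all tested genes were 31% and 26.2%. All 13 mitochondrial transcripts were called higher, and 2 of them were common genes. The 4 genes described first kept their calls without that library, with log2 fold changes of 4.42 for Prss34, 3.45 for Mcpt8, 3.71 for Clec12a and 3.999 for Mki67. Calls over all genes rose to 9560 without BaP replicate 3.

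A few common genes were ordered across all 4 groups, with a call between BaPs and pre-basophils and between spleen and BM mature basophils in the direction of the pooled contrast. There were 7 such genes with the highest level in BaPs and the lowest in spleen, namely Pnn, Ppif, Car2, Nkg7, Ramp1, Myb and Mpo, and 24 with the reverse order, among them Mapk12, Dnase2b, L1cam, Dmxl2, Junb, Jun, Jak2 and Ctsd. With the replicate terms shared by the BM groups the counts were 15 and 50. Myb, the gene of a transcription factor of progenitors, had 156 ± 28.8 CPM in BaPs, 78.9 ± 15.0 in pre-basophils, 16.4 ± 4.32 in BM and 6.45 ± 2.0001 in spleen mature basophils (SD, n = 3 each). Mpo had 1252 ± 628, 508 ± 100.2, 47.1 ± 21.6 and 13.9 ± 2.44 CPM in the same order. Ctsd had 353 ± 14.03, 548 ± 33.2, 998 ± 80.5 and 1436 ± 188 CPM, and Mapk12 had 4.74 ± 1.47, 9.73 ± 1.18, 71.0 ± 0.916 and 120.3 ± 20.5 CPM. For Mapk12 the log2 fold change was -0.96 between BaPs and pre-basophils, 0.76 between spleen and BM mature basophils and -3.72 in the pooled contrast.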

How the data were processed

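Bulk RNA was sequenced from 12 libraries of sorted mouse basophil-lineage cells, 3 in each of 4 groups. The authors amplified whole transcriptomes, trimmed reads with cutadapt 3.4, aligned them to mouse reference RNA with Bowtie2 2.4.2 and deposited 1 table of raw read counts per gene symbol, with no normalization. The study's methods name GRCm38 and the submitters' processing notes list GRCm39, which the table, holding symbols only, does not settle. Strand and multimapping rules were not given in the sources used here, so reads of close copies and of antisense genes cannot be told apart. Totals of 3596108 to 8151030 counts set the precision, and a floor of 3 counts per library covers counting error only.

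Groups were taken from the sample labels. Genes were filtered with filterByExpr, scaled by TMM and fitted in edgeR 4.0.16 (R 4.3.3) with 4 group terms and the quasi-likelihood test. The SE of a log2 fold change was taken as its absolute value divided by the square root of the F statistic of that test. Log2 CPM used a prior count of 2. Named genes were the 4 markers, the 8 common genes with non-overlapping sides and a mean of at least 10 CPM that had the largest and smallest fold change and the lowest adjusted p in each direction, and 2 genes from both ends of each list. Other genes were named after their values were seen. The comparison, the markers and the 32 gene lists (664 genes) were chosen with earlier results of these data known. Alternatives used DESeq2 1.42.0, limma 3.58.1, other scalings and filters, glmTreat and left-out libraries or groups. The list counts within a side were an alternative added after seeing the data. The replicate numbers of the labels were checked for pairing. Deviations from the group means correlated by 0.125 to 0.262 in all 9 same-numbered pairs of libraries of the 3 BM groups and by -0.206 to 0.0758 in differently numbered ones, whereas the 9 pairs with spleen had 0.000366 to 0.0899. The numbers were thus taken to pair the BM libraries and not the spleen libraries, from these data, since the labels give no shared batch. Replicate 3 had the highest total count in each of the 4 groups, and the part of depth in these correlations was not tested. Deviations were taken from group means of 3 libraries, so the values of differently numbered pairs are not independent of those of same-numbered pairs. A fit with replicate terms in the BM groups was added after seeing the data. The fit was tested on simulated data. Gene positions come from GENCODE M21 (GRCm38), which matched 97% of tested genes, and promoter windows from RefSeq (GRCm38.p6). No libraries were duplicates, since replicates differed by 4.16 to 35.0 in chi-square per degree of freedom.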

Additional observations from a re-analysis of the deposited data

Results flagged for a closer look

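Single libraries far from the others of their side were found by the gap of the highest or lowest library to its neighbour as a share of the whole range of 6 libraries on the log2 CPM scale, against the 95% critical value of Dixon's test. Of 290 pairs of gene and side, for 145 named genes, 29 passed (10%), where chance gives about 5%. In 25 of them the library was BaP replicate 3 on the CLEC12A-high side. The gap as a share of the range was, from high to low, Ms4a2 (0.934), Lck (0.881), Alox5 (0.873), Prss34 (0.858), Ifngr1 (0.849), Mcpt8 (0.826), Cd79b (0.79), Fcer1a (0.763), Stat3 (0.763), Trbc1 (0.753), Meis1 (0.752), Foxm1 (0.744), mt-Co2 (0.738), Trbc2 (0.729), Pttg1 (0.728), Nr4a2 (0.718), Car2 (0.69), Ly6c2 (0.689), Gata2 (0.687), Adgre1 (0.665), Plk4 (0.662), Ltb4r1 (0.662), mt-Nd4 (0.655), Cd79a (0.646) and Mki67 (0.633). BaP replicate 3 was the lowest CLEC12A-high library for the protease genes Prss34 and Mcpt8, the IgE receptor genes Ms4a2 and Fcer1a and the 5-lipoxygenase gene Alox5, and the highest for Lck, Ifngr1, Trbc1 and Trbc2. In pre-basophil replicate 3 the gap was 0.72 for Adsl and 0.681 for Mcl1, and in BM mature replicate 2 it was 0.682 for Nfkbid and 0.634 for Prg2.

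Effects that differed between groups were taken from edgeR's quasi-likelihood test of spleen against BM mature basophils, which equals the difference between the effects measured against either mature group, and of BaPs against pre-basophils, which equals the difference between the effects of either immature group. Among the 145 named genes, 39 differed between spleen and BM mature basophils at an adjusted p under 0.05. Over all tested genes 3.16% were higher and 4.67% lower in spleen, but the naming rules used values of the same libraries. The log2 fold changes of spleen minus BM were negative for Depdc1a (-4.18), Spp1 (-2.76), Prss34 (-2.46), Ccnb2 (-2.41), Kif18b (-2.34), Mthfd2 (-2.17), Tnf (-2.08), Mki67 (-1.89), Cks1b (-1.85), Mpo (-1.73), Pmaip1 (-1.69), Stmn1 (-1.61), Ms4a3 (-1.58), Top2a (-1.56), Ctsg (-1.54), Clec12a (-1.47), Mcpt8 (-1.41), Myb (-1.34), Cdkn2c (-1.19), Icam1 (-1.18), Cish (-1.11), Car2 (-1.11), Pycard (-0.92), Ms4a2 (-0.86) and Nkg7 (-0.67). Positive values were found for Ctsd (0.53), Irak1 (0.54), L1cam (0.72), Plcg1 (0.74), Mapk12 (0.76), Jak2 (0.83), Dmxl2 (0.85), Polr1e (1.08), Cd79b (1.23), Dnase2b (1.28), H2-Ab1 (2.59), Cd79a (3.09), Ppbp (3.32) and Cd74 (3.76). Between BaPs and pre-basophils 42 named genes differed, where 2.79% of all tested genes were higher and 4.29% lower in BaPs. The log2 fold changes of BaPs minus pre-basophils were negative for Slc6a9 (-2.21), C3ar1 (-1.74), L1cam (-1.72), Ccl6 (-1.55), Dnase2b (-1.53), Nxpe4 (-1.45), Ccl9 (-1.39), Hdc (-1.15), Zfp36 (-1.15), Nfil3 (-1.13), Cxcr2 (-1.09), Ptgs2 (-1.07), Mapk12 (-0.96), Tnf (-0.93), Gab2 (-0.92), Nfkbiz (-0.91), Nfkbid (-0.90), Slc2a3 (-0.89), Grina (-0.79), Id1 (-0.78), Jak2 (-0.75), Btg2 (-0.68), Ctsd (-0.63), Ccnb2 (-0.62), Myd88 (-0.59), Dmxl2 (-0.58) and Btg1 (-0.54). Positive values were found for Mcm7 (0.49), Cbx5 (0.56), Cdk4 (0.61), Hmgn1 (0.71), mt-Nd5 (0.74), Car2 (0.80), Nop10 (0.85), Myb (0.98), Nkg7 (1.02), Rrs1 (1.15), Mpo (1.30), Bcl2 (1.30), Cd24a (1.35), Sox4 (1.66) and Lck (3.97). The B cell genes Cd74, Cd79a, Cd79b and H2-Ab1 and the platelet gene Ppbp were among those higher in spleen, and the summed B cell markers were 615 to 1002 CPM there and 68.1 to 110.4 CPM in BM mature libraries. The part of other cells in these differences was not tested.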

How the results depend on the processing

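The pooled contrast called 8652 genes with DESeq2 size factors, 8336 with library totals alone, 9067 with no filter, 8146 with at least 10 counts in 6 libraries, 7865 as 2 groups of 6 libraries, 8103 with DESeq2, 8535 with limma-voom, and 7227, 8035, 8280 and 6023 without the BaP, pre-basophil, BM mature or spleen libraries. Leaving out 1 library gave 7950 (without BM mature replicate 3) to 9560 (without BaP replicate 3) calls, 4365 to 4925 higher and 3585 to 4635 lower. With library totals alone 2082 were lower. A test for a change beyond 2-fold (glmTreat) called 1530, 1135 higher and 395 lower, and 443 in all 4 pairs. Against 3205 with all libraries, the genes called in all 4 pairs numbered 2308 (without pre-basophil replicate 1) to 4051 (without BaP replicate 3), and 5253 without the pre-basophil and 5643 without the BM mature libraries, where 2 comparisons are left by construction. Over 145 named genes, 3544 combinations of gene and setting kept direction and call, 117 lost the call, 41 gained it and 58 turned direction. Ifngr1, Mmp9, Irak1, Gata2 and Cd79a lost their calls when some 1 library was left out. The cause of the turned directions was not tested.

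Of the genes that turned direction, leaving out 1 library in turn gave log2 fold changes of -3.66 to 1.28 for Hbb-bt (0.53 with all), -0.049 to 0.29 for Hspa5 (0.13 with all), -0.81 to 1.29 for Lck (0.95 with all), -0.86 to 1.35 for Ly6c2 (1.07 with all), -0.0038 to 0.075 for Nop14 (0.040 with all), -0.052 to 1.40 for Nr4a2 (1.08 with all), -0.080 to 0.038 for Rb1 (-0.035 with all), -0.23 to 0.052 for Stat3 (-0.042 with all), -0.15 to 0.79 for Traf1 (0.55 with all), -2.88 to 0.20 for Trbc1 (-0.18 with all) and -3.03 to 0.29 for Trbc2 (-0.078 with all). The extreme towards the lower end was without BaP replicate 3 for Hbb-bt, Lck, Ly6c2, Nr4a2, Traf1, Stat3, Trbc1 and Trbc2. Library totals alone gave 0.029 for Irak1, 0.020 for Meis1, 0.016 for Polr1e, 0.16 for Pttg1, 0.22 for Rb1, 0.23 for Stat3, 0.15 for Trbc1 and 0.24 for Trbc2. As 2 groups of 6 libraries, the values were -0.31 for H2-Ab1, 1.10 for Trbc1 and 1.51 for Trbc2. The limma-voom fit gave -0.87 for Hbb-bt. Without the BaP libraries they were -0.013 for H2-Ab1, -1.54 for Hbb-bt, -0.053 for Hspa5, -1.02 for Lck, -0.48 for Ly6c2, -0.14 for Nop14, -0.24 for Nr4a2 and 0.044 for Rb1. Without the pre-basophil libraries they were 0.083 for Meis1, 0.030 for Polr1e, 0.17 for Stat3, 2.10 for Trbc1 and 2.45 for Trbc2. Without the BM mature libraries they were -0.24 for Cd79b, -1.09 for H2-Ab1, -0.091 for Nop14 and 0.10 for Pttg1. Without the spleen libraries they were -0.19 for Cish, -0.10 for Icam1, 0.014 for Irak1, 0.29 for Polr1e, 0.11 for Rb1 and 0.32 for Trbc1.

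With a replicate block shared by the 3 BM groups, an alternative added after seeing the data, 9040 genes were called in the pooled contrast, 4791 higher and 4249 lower. Of the named genes, Cd79b (0.39, edgeR adjusted p 0.0412) and Cish gained a call in this contrast and Hbb-bt turned to -0.63. With the block over all 4 groups, 8911 genes were called, 4777 higher and 4134 lower, Ifngr1 lost its call (edgeR adjusted p 0.0598) and Hbb-bt had -0.17. Neither block changed the pooled call of another named gene.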

Other observations

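Transcription factors of blood lineages were called higher in 12 of 33 cases (36.4%) and lower in 7 (21.2%), near the 31% and 26.2% of all tested genes, with a median log2 fold change of -0.09, close to that of all genes. The common ones that were higher were Hoxa9, a homeobox gene of progenitors (log2 fold change 4.25, SE 0.50, edgeR adjusted p 7.3e-06), and Myb (log2 fold change 3.44, SE 0.18, edgeR adjusted p 4.64e-09). Hoxa9 had means of only 4.06 against 0.17 CPM, close to the level that a few counts give. Those that were lower and common were Id1, Nfil3, Runx2, Spi1 and Tal1. Id1 had 46.1, 95.7 and 132 CPM in the CLEC12A-high libraries and 208, 233 and 348 CPM in the mature libraries (log2 fold change -1.52, SE 0.14, edgeR adjusted p 7.35e-07), and Nfil3, a basic leucine zipper factor, had 36.8, 57.8 and 109 against 119, 158 and 258 CPM (log2 fold change -1.4998, SE 0.16, edgeR adjusted p 3.61e-06). Gata2, a factor that basophils and progenitors share, had 757, 1663 and 1942 against 1633, 2015 and 2455 CPM and passed narrowly (edgeR adjusted p 0.0176). Cebpa, Irf8 and Runx1 did not pass, with log2 fold changes of -0.27, -0.55 and 0.03. Without BaP replicate 3, 14 genes of the list were called lower in place of 7, and without the spleen libraries 5 were called higher in place of 12.

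Of 13 tested BCL2 family genes, which set the threshold for cell death, 5 were called higher and 5 lower (38.5% each), where the shares over all tested genes were 31% and 26.2%. Bik, a BH3-only member, had a log2 fold change of 3.18 (SE 0.55) with means of only 2.97 against 0.33 CPM. Bcl2, which opposes death, had 36.6, 65.4 and 150.1 CPM in the CLEC12A-high libraries and 16.5, 19.9 and 24.5 CPM in the mature libraries (log2 fold change 1.77, SE 0.16, edgeR adjusted p 6.91e-07). Mcl1, another protective member, had 239.8, 321 and 908 against 479.7, 690.0 and 1593 CPM (log2 fold change -1.18, SE 0.30, edgeR adjusted p 0.00434). The others called higher were Bcl2l2, Pmaip1 and Bak1, and the others called lower were Bbc3, Bmf, Bax and Bid. Glycolysis genes were called higher in 7 of 21 cases (33.3%) and lower in 8 (38.1%), against the same shares over all tested genes. The glucose transporter genes Slc2a1 and Slc2a3 had -1.36 and -1.35, while Gapdh and Pgk1, enzymes of the lower pathway, had 1.19 and 1.23 (edgeR adjusted p 2.8e-06 and 5e-07). These genes do not stand for the lower pathway. Its genes Eno1 and Pkm did not pass (0.06 and -0.05), and Pgam1 was called higher by only 0.39 (edgeR adjusted p 0.0101). With library totals alone 11 glycolysis genes were called higher.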
